A study of Canis lupus familiaris with 10 samples.

Results

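cfa-miR-101, cfa-miR-361, cfa-miR-103 and cfa-miR-107 (hereafter without the prefix for the dog) were taken as candidate reference miRNAs, chosen by name, and followed in small RNA libraries of 10 fresh-frozen canine lymph nodes. A row for miR-101, miR-361 and miR-107 was found among the 320 miRNAs counted, and all 3 passed the filter on low counts that left 247 miRNAs for testing. miR-103 had no row in the counts used and was not analysed here. The nodes came from 6 dogs with diffuse large B-cell lymphoma (DLBCL1 to DLBCL6), an aggressive tumor of mature B cells, and from 4 healthy controls (Healthy2 to Healthy5). Each library is from a different dog. Patients of a hospital gave the DLBCL samples, and their peripheral nodes were biopsied under anesthesia, whereas the controls were purpose-bred research dogs that were euthanatized in surgical teaching, so that origin and sampling cannot be told apart from diagnosis. The labels give the disease state and the tissue, and no age, sex or treatment. In the study's list of animals, all 4 controls were female hound crosses less than a year old. The DLBCL dogs were of both sexes and several breeds, and their ages are not listed. Sex and breed thus also differed between the groups.

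A reference miRNA is one against which others are measured. In RT-qPCR, the amount of each miRNA is given relative to that of the references in the same sample, so any difference of the references between groups is passed on, with the opposite sign, to every miRNA measured. A reference is therefore sought that varies little both within groups and between them. miR-101 and miR-361 were 2 of the references that the study selected for its own RT-qPCR, and miR-29c was the third. By their names, the dogs of that selection were also sequenced, apart from a control numbered outside the sequenced ones, so that the sequencing counts are not evidence from independent animals. miR-103 and miR-107 are a pair of near-identical miRNAs that share their seed, the bases that pair with target mRNAs, and are in common use as references. They are known to target DICER1, an enzyme of miRNA maturation, while miR-101 is known for targeting EZH2, a histone methyltransferase active in germinal center B cells.

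By the gene annotation of the assembly UU_Cfam_GSD_1.0, from which only names and neighbors were read, miR-101 has 2 genes, of which one lies within RCL1 and the other within the uncharacterized LOC106558823. MIR361 lies within CHM, which encodes a Rab escort protein. MIR107 lies within PANK1, and the 2 genes of miR-103 lie within PANK2 and PANK3, which like PANK1 encode pantothenate kinases, the enzymes that start coenzyme A synthesis. Reads of miR-101 cannot be assigned to either of its genes. Reads of miR-103, or shared by miR-103 and miR-107, could have been counted under miR-107 or left out. The count of miR-107 is therefore uncertain, and the size of this was not tested.

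The authors' counts summed to between 10686441 and 25784861 miRNA reads per DLBCL library and to between 30432969 and 34709421 per healthy library. Expression is given as CPM, the reads scaled to a common library size adjusted with edgeR's TMM factors. In such bulk samples, fewer cells of a type and less RNA per cell cannot be told apart. Among marker lists, that of lymphocytes (6 miRNAs, 2 of them lower in DLBCL by the test used below) summed to between 13180 and 28434 CPM in DLBCL and between 22929 and 41179 in healthy nodes. That of red blood cells (3 miRNAs, 2 higher) summed to between 5171 and 35567 CPM in DLBCL and between 808 and 1070.5 in healthy nodes. The test called 5.67% of all miRNAs tested. Lists of stroma and vessels (5 miRNAs), myeloid cells (1), skeletal muscle (3, of which 2 were tested) and pancreas (4) held no call. Their sums ranged over 18867 to 70627, 3.95 to 88.3, 8.82 to 352 and 32.6 to 663 CPM in DLBCL, and over 26911 to 55304, 16.9 to 38.6, 14.7 to 74.6 and 916 to 1951 CPM in healthy nodes. In the pancreas list, miR-216a, miR-216b and miR-217 were lower in every DLBCL library than in any healthy one. Their log2 fold changes were -2.57, -2.84 and -3.16, whereas miR-375 overlapped between the groups. Such a lack of overlap was found for 13% of all miRNAs tested. The part of the marker lists in the values below was not tested.

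miR-101 was the most abundant of the 3 candidates and had nearly the same mean in both groups. It measured 1892, 2028, 2153, 1749, 2493 and 3073 CPM in DLBCL1 to DLBCL6. In Healthy2 to Healthy5 it measured 1847, 2114, 2716 and 2419 CPM. All 4 healthy libraries lay within the range of the DLBCL libraries, whose lowest was DLBCL4 and highest DLBCL6. The DLBCL mean was 2231 ± 484 CPM (SD, n = 6), against a healthy mean of 2274 ± 376 CPM (SD, n = 4), and the highest library exceeded the lowest 1.76 times.

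miR-361 was 119th of the 247 miRNAs by mean expression, far below miR-101 at 36th, and varied as little. It measured 42.8, 38.8, 51.7, 49.8, 41.5 and 49.8 CPM in DLBCL1 to DLBCL6. The healthy libraries held 39.5, 61.8, 65.4 and 48.8 CPM. Healthy3 and Healthy4 lay above each DLBCL library, whereas Healthy2 and Healthy5 lay within the DLBCL range. The DLBCL mean was 45.7 ± 5.36 CPM (SD, n = 6), against a healthy mean of 53.9 ± 11.9 CPM (SD, n = 4), and the highest library exceeded the lowest 1.69 times. With 511 to 2011 reads per library, the counting error was at most 4.42%, which covers counting alone and is below the spread between dogs.

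miR-107 varied more than the other 2 candidates in both groups. It measured 57.6, 72.2, 42.8, 100.2, 86.8 and 142 CPM in DLBCL1 to DLBCL6. In the healthy libraries it measured 29.1, 51.4, 41.3 and 79.2 CPM. DLBCL6 and DLBCL4 were highest among the DLBCL nodes and Healthy5 among the healthy ones, and Healthy5 exceeded DLBCL1, DLBCL2 and DLBCL3, so that the groups overlapped. The DLBCL mean was 83.6 ± 35.2 CPM (SD, n = 6), against a healthy mean of 50.3 ± 21.3 CPM (SD, n = 4), and the highest library exceeded the lowest 4.88 times.

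**Figure D1:**
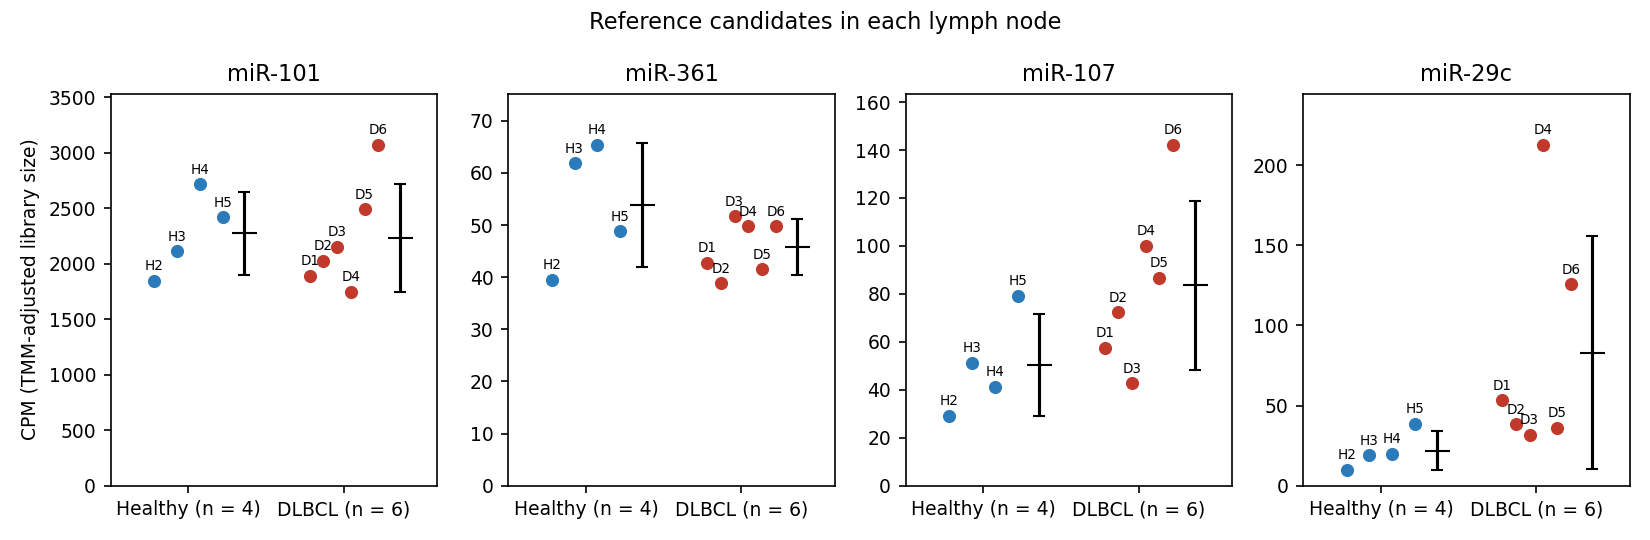
CPM (TMM-adjusted) of miR-101, miR-361, miR-107 and miR-29c in each library, with H2 to H5 the healthy and D1 to D6 the DLBCL libraries; the bar beside each group is its mean ± SD. The groups overlap in all 4 panels, and the highest library exceeds the lowest 1.76 times for miR-101, 1.69 times for miR-361, 4.88 times for miR-107 and 21.1 times for miR-29c.

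DLBCL and healthy nodes were compared by the quasi-likelihood test of edgeR with Benjamini-Hochberg adjustment over the 247 miRNAs. An adjusted p under 0.05 together with an absolute log2 fold change over 1 defined a differentially expressed miRNA (DEM). None of the 3 candidates was a DEM, against 5.67% of all miRNAs tested, and none had an unadjusted p under 0.05, against 26.7% of all. DESeq2 and limma-voom called none of the 3 either. The log2 fold change of miR-101, as DLBCL over healthy, was -0.03 (standard error 0.30, 95% interval -0.68 to 0.63, adjusted p = 0.968 from edgeR). That of miR-361 was -0.24 (standard error 0.36, 95% interval -1.01 to 0.54, adjusted p = 0.707 from edgeR). For miR-107 it was 0.73 (standard error 0.46, 95% interval -0.27 to 1.74, adjusted p = 0.298 from edgeR). The interval thus leaves room for a more than 2-fold rise of miR-107 in DLBCL, and for miR-101 it lies within a 2-fold change in either direction. The interval of miR-101 reached beyond a 2-fold change with the total of miRNA reads (-0.33 to 1.77) and with miR-101, miR-361 and miR-29c as the references (-1.20 to 0.25), as it did when scaled to miR-107 or miR-29c alone. In the scaling to the 3 references, miR-101 is part of its own scale. Intervals within a 2-fold change were rare, being found for 4.86% of the 247 miRNAs, and miR-101 was the only candidate of the 3 to have one, with the lower bound of miR-361 just outside. By exact permutation of the group labels (210 arrangements, two-sided, on log2 CPM), p was 0.833 for miR-101, 0.214 for miR-361 and 0.0952 for miR-107 (0.833, 0.321 and 0.286 after Benjamini-Hochberg adjustment over the 3).

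In the read statistics of the study, the base quality (Q30) of DLBCL1, DLBCL2, DLBCL3 and DLBCL5 was higher than that of DLBCL4, DLBCL6 and the 4 healthy libraries. When the lower Q30 group was taken alone, which leaves 2 DLBCL libraries and all 4 healthy ones, the log2 fold change was 0.07 for miR-101, -0.13 for miR-361 and 1.26 for miR-107. No healthy library had the higher Q30, so that no such value can be given there. miR-107 was higher in DLBCL4 and DLBCL6 than in the other DLBCL libraries, and with the Q30 group as a covariate its log2 fold change was 1.27. None of these values was called.

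Over the 10 libraries, the SD of log2 CPM was 0.26 for miR-361 and 0.26 for miR-101, ranks 2 and 3 from the lowest among the 247 miRNAs, whose median SD was 1.05. miR-107, with 0.68, had rank 51. Within DLBCL the SD was 0.17 for miR-361 (rank 2), 0.30 for miR-101 (rank 4) and 0.61 for miR-107 (rank 40). Within the healthy nodes it was 0.33 for miR-361 (rank 59), 0.24 for miR-101 (rank 35) and 0.60 for miR-107 (rank 143). The places of miR-101 and miR-361 among the 4 healthy nodes were thus less low than those over all libraries. With DESeq2's size factors their SDs within the healthy nodes were 0.16 and 0.23, against 0.27 and 0.30 within DLBCL. Whether the spread differed between the groups was tested for each candidate by an exact permutation of the absolute deviations from the group median (two-sided), which gave adjusted p = 0.905 for miR-101, 0.171 for miR-361 and 0.905 for miR-107. As a coefficient of variation of CPM over the 10 libraries, the values were 18.8% for miR-101, 18.4% for miR-361 and 48.0% for miR-107.

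**Figure D2:**
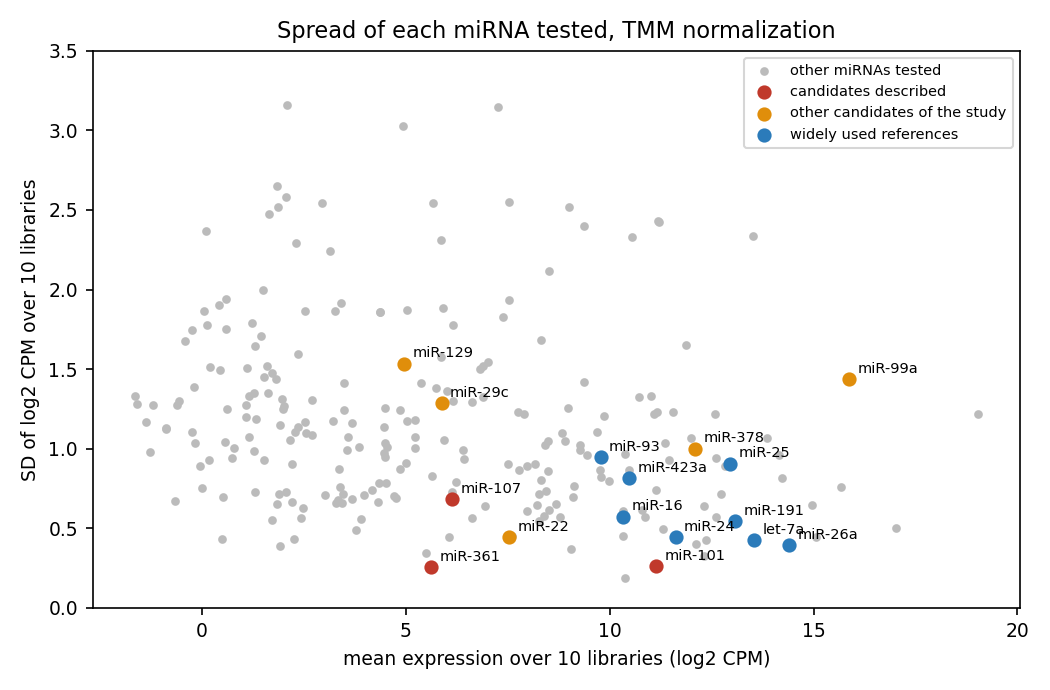
SD of log2 CPM over the 10 libraries against mean expression for the 247 miRNAs tested, with the 3 candidates described, the other 5 candidates of the study's reference selection and 8 widely used references in color. miR-101 and miR-361 lie at the lower edge with an SD of 0.26 each, miR-107 at 0.68, and miR-29c, miR-99a and miR-129 above the median of 1.05.

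The other 5 miRNAs of the study's search for references were set beside them. miR-22 was nearest, with an SD of log2 CPM of 0.44 (rank 15), a log2 fold change of -0.09 and a 95% interval within a 2-fold change. miR-378 was a DEM and was higher in the tumors, at a log2 fold change of 1.78 (adjusted p = 0.0397 from edgeR). That call was lost by edgeR with DESeq2's size factors (1.88, adjusted p = 0.0511), with upper-quartile factors (1.64, adjusted p = 0.0532) and when scaled to miR-101 alone (1.79, adjusted p = 0.0607), to miR-101, miR-361 and miR-29c (1.34, adjusted p = 0.116), or to miR-107 or miR-29c alone. miR-129 and miR-99a had log2 fold changes near 0, at -0.07 and -0.06, but SDs of 1.53 and 1.44, since both varied widely among the DLBCL nodes. miR-129 ranged there from 3.77 CPM in DLBCL6 to 113 CPM in DLBCL3, and miR-99a from 4856 CPM in DLBCL3 to 162741 CPM in DLBCL5. A mean difference near 0 thus came with a low spread for miR-101 and with a high one for these miRNAs.

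miR-29c, the third reference of the study's RT-qPCR and a member of a family known to target DNA methyltransferases, varied far more in the counts than miR-101 and miR-361. It measured 53.4, 38.3, 31.9, 213, 36.2 and 126 CPM in DLBCL1 to DLBCL6. In Healthy2 to Healthy5 it measured 10.1, 19.0, 20.1 and 38.5 CPM. DLBCL4 and DLBCL6 stood above all other libraries, and Healthy5, the highest healthy library, exceeded DLBCL2, DLBCL3 and DLBCL5. Its log2 fold change was 1.92 (standard error 0.68, 95% interval 0.45 to 3.40), with an adjusted p of 0.109 from edgeR that did not pass the threshold, and its SD of 1.29 had rank 171 of 247. The higher libraries of miR-29c were also those of miR-107, namely DLBCL4, DLBCL6 and, among the healthy nodes, Healthy5. In the study's RT-qPCR, miR-29c had the lowest coefficient of variation of the reference candidates listed, taken on amplification cycles. That measure is on another scale than an SD of log2 CPM, and they are not compared here. Relative to references that included miR-29c itself, the RT-qPCR also gave a higher mean of miR-29c in DLBCL, without passing the study's adjusted threshold. The direction was thus the same in the counts and the RT-qPCR. How far the methods differed for miR-29c was not tested.

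Of 8 miRNAs in wide use as references in other tissues, SDs of log2 CPM ran from 0.39 for miR-26a to 0.94 for miR-93, with a median of 0.56. All 8 thus had a higher SD than miR-101 and miR-361, and miR-423a, miR-25 and miR-93 a higher one than miR-107. This order did not hold on every scale. With the total of miRNA reads miR-26a (0.61) and let-7a (0.67) had lower SDs than miR-361 (0.68) and miR-101 (0.72). With the total reads without miR-148a the SD of let-7a (0.33) was below those of miR-361 (0.48) and miR-101 (0.45), and miR-423a (0.57) and miR-25 (0.65) were below miR-107 (0.89). Scaled to miR-101, miR-361 and miR-29c, miR-191 (0.37) and miR-16 (0.44) were also below miR-101 and miR-361, which are themselves part of that scale. None of the 8 was a DEM, against 5.67% of all miRNAs tested, and 4 had an unadjusted p under 0.05, against 26.7% of all. miR-191 and miR-26a did not overlap between the groups, as 13% of all miRNAs tested did not. The DLBCL mean of miR-191 was 10488 ± 2882 CPM (SD, n = 6), against a healthy mean of 5761 ± 886 CPM (SD, n = 4). For miR-26a the DLBCL mean was 18311 ± 4114 CPM (SD, n = 6), against a healthy mean of 26809 ± 1233 CPM (SD, n = 4). The 3 candidates described here all overlapped between the groups.

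Ratios between candidates within a library do not depend on how the libraries are scaled. The log2 ratio of the counts of miR-101 to miR-361 was 5.47, 5.71, 5.38, 5.13, 5.91 and 5.95 in DLBCL1 to DLBCL6 and 5.55, 5.10, 5.38 and 5.63 in Healthy2 to Healthy5. Its SD over the 10 libraries was 0.29, the lowest of the 28 pairs that can be formed from the 3 candidates and the other 5 of the study. The groups differed by 0.18, which was within the spread (exact permutation test, two-sided, adjusted p = 0.357 over the 3 pairs).

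Relative to miR-107, the means of both miR-101 and miR-361 were below those of healthy nodes, by differences that did not pass the test. The log2 ratio of miR-101 to miR-107 averaged 4.82 ± 0.52 (SD, n = 6) for DLBCL, against 5.58 ± 0.53 (SD, n = 4) for healthy nodes, a difference of -0.76. That of miR-361 to miR-107 averaged -0.77 ± 0.62 (SD, n = 6), against 0.17 ± 0.60 (SD, n = 4), a difference of -0.94. In both ratios DLBCL1 and DLBCL3 lay within the range of the healthy libraries, and Healthy3 and Healthy5 within that of the DLBCL libraries. The exact permutation test (two-sided) gave p = 0.0619 for each, and an adjusted p of 0.0929 over the 3 pairs. Without DLBCL3 the differences were -0.93 and -1.15, and the exact test gave an adjusted p of 0.0357 for both.

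**Figure D3:**
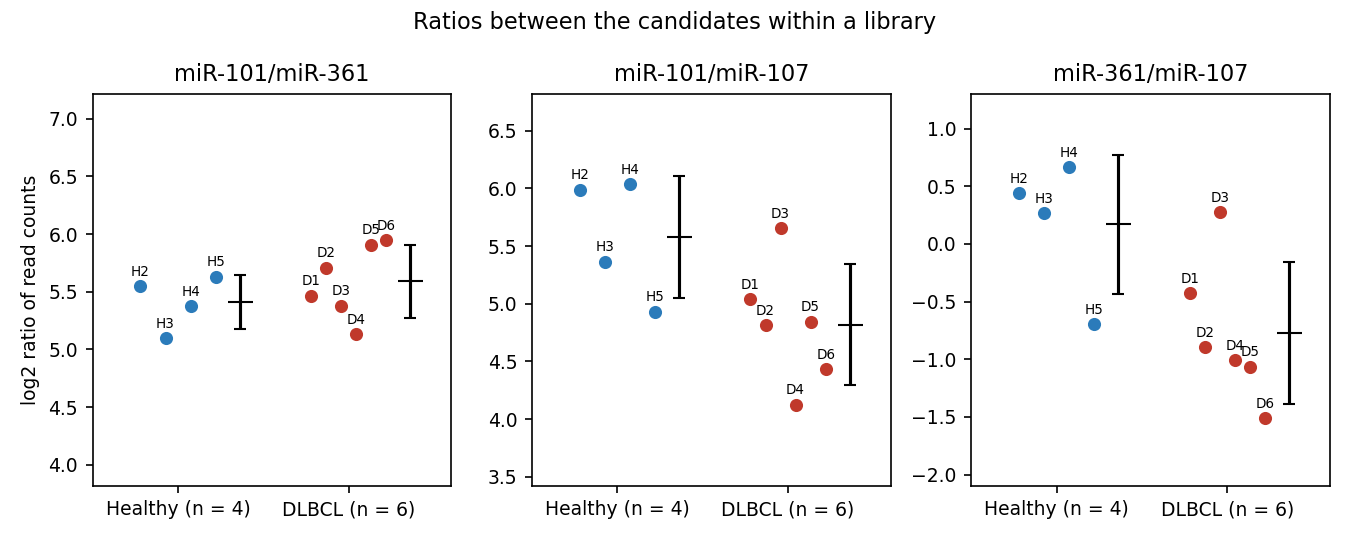
Log2 ratio of read counts between each pair of the 3 candidates in each library, with H2 to H5 the healthy and D1 to D6 the DLBCL libraries, and the mean ± SD beside each group; the 3 panels span the same height on the log2 scale. The ratio of miR-101 to miR-361 differs by 0.18 between the groups. The ratios to miR-107 differ by -0.76 and -0.94, with DLBCL1, DLBCL3, Healthy3 and Healthy5 inside the range of the other group.

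With libraries scaled by their total of miRNA reads, the scale of the deposited TPM, the candidates varied more. miR-148a, the miRNA with most reads, had a DLBCL mean of 297570 ± 180760 CPM (SD, n = 6), against a healthy mean of 888341 ± 439632 CPM (SD, n = 4), with a log2 fold change of -1.58 and an adjusted p of 0.0806 from edgeR that did not pass. These CPM refer to the adjusted library size and are not shares of the reads. As a share of miRNA reads, miR-148a took 17.8% (DLBCL6) to 39.0% (DLBCL3) in DLBCL and 51.5% (Healthy5) to 73.6% (Healthy2) in healthy libraries. miR-148a was a DEM with the total reads without miR-148a (-1.86, adjusted p = 0.00552 from edgeR) and when scaled to miR-29c alone, and with the total of miRNA reads its adjusted p was 0.011 at a log2 fold change of -0.96. Over the 247 miRNAs, the median log2 fold change moved from 0.13 to 0.82 on that scale. The log2 fold changes of miR-101, miR-361 and miR-107 were 0.72, 0.51 and 1.48, and their SDs over the libraries 0.72, 0.68 and 1.27. The median shift over all 247 miRNAs between the 2 scales was 0.73, and 9.31% were DEMs with total reads, none of them a candidate. With DESeq2's size factors (3.24% DEMs), the log2 fold changes were 0.00, -0.17 and 0.75. With upper-quartile factors (4.05% DEMs) they were -0.15, -0.39 and 0.62, and with the total reads without miR-148a -0.11, -0.30 and 0.70. miR-107 was thus positive and without a call on each of these scales, and the sign of miR-101, whose value was close to 0, changed among them. miR-361 had rank 2 with upper-quartile factors and rank 3 with DESeq2's size factors, and miR-101 ranks 5 and 2. With the total of miRNA reads miR-361 fell to rank 24 and miR-101 to rank 29, and with the total reads without miR-148a they had ranks 18 and 13. Scaling with TMM factors computed without the 3 candidates gave -0.02, -0.23 and 0.74.

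**Figure D4:**
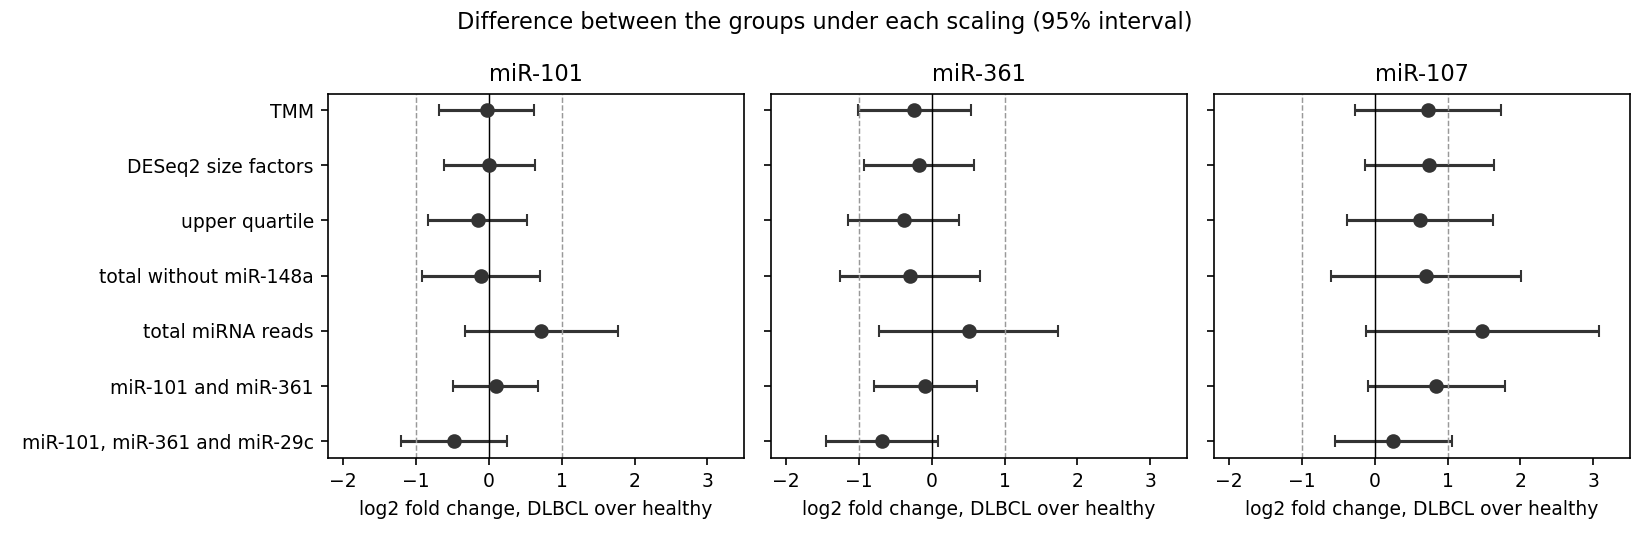
Log2 fold change of miR-101, miR-361 and miR-107 between DLBCL and healthy nodes (points) with its 95% interval (bars) under 7 scalings of the libraries; dashed lines mark a 2-fold change. With TMM factors the points are at -0.03, -0.24 and 0.73, and with the total of miRNA reads they lie at 0.72, 0.51 and 1.48. In the scalings to references, miR-101 and miR-361 are part of their own scale.

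The counts were then scaled to the references themselves, as is done in RT-qPCR, to see how the choice moves the comparison of all miRNAs. Scaled to the geometric mean of miR-101 and miR-361, the median log2 fold change of the 247 miRNAs was 0.29, and 12 were DEMs (4.86%), 11 higher and 1 lower in DLBCL. With TMM factors 14 were DEMs, 9 higher and 5 lower, and 10 of them were shared. When miR-29c was added to the geometric mean, the median moved to -0.32, and of the 12 DEMs (4.86%) 2 were higher and 10 lower. Of these, 7 were DEMs with TMM factors. With these 3 references the log2 fold changes of miR-101 and miR-361 were -0.47 and -0.68, and that of miR-29c was 1.32. Each is here scaled to a mean that contains it, so that a higher miR-29c lowers the others by construction. These values are therefore no test of miR-101 or miR-361. Leaving out each library in turn, the number of DEMs ranged from 2 without Healthy2 or Healthy4 to 17 without DLBCL3 when scaled to miR-101 and miR-361, and from 0 without Healthy4 to 34 without DLBCL2 when miR-29c was added.

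The references taken singly moved the comparison to different degrees. Scaled to miR-101 alone, 3 of the other 246 miRNAs were DEMs (1.22%), 2 higher and 1 lower, with a median log2 fold change of 0.20. Scaled to miR-361 alone, 12 were DEMs (4.88%), 11 higher and 1 lower, with a median of 0.36. With miR-107 alone the median was -0.59 and 22 were DEMs (8.94%), 3 higher and 19 lower, and with miR-29c alone the median was -1.40 and 88 were DEMs (35.8%), 2 higher and 86 lower. miR-361 was among these 88, with a log2 fold change of -1.75 (adjusted p = 0.0412 from edgeR), a call that was not made on the other scales tried.

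**Figure D5:**
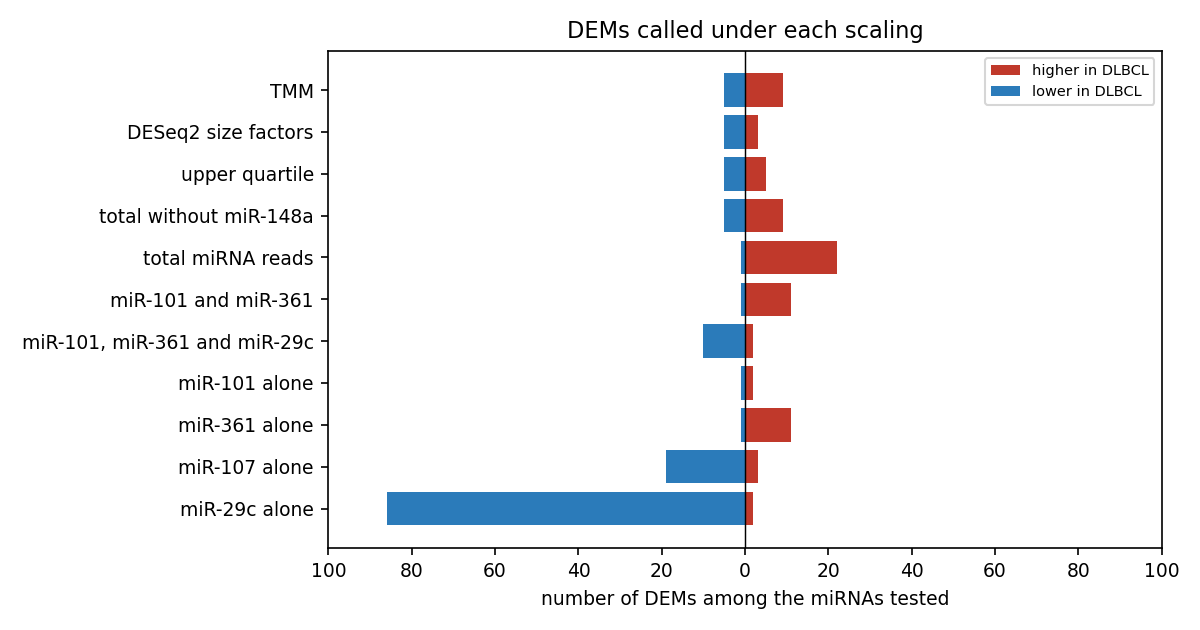
Number of DEMs higher (red, to the right) and lower (blue, to the left) in DLBCL under each scaling of the libraries. The split is 9 higher and 5 lower with TMM factors, 11 and 1 when scaled to miR-101 and miR-361, and 2 and 10 when miR-29c is added.

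The miRNAs whose counts kept the most constant ratio to each candidate were sought by the SD of the log2 ratio over the 10 libraries. For miR-101 these were miR-652 (0.25), miR-361 (0.29) and let-7b (0.32), against a median of 1.10 over all miRNAs tested. For miR-361 they were let-7b (0.19), miR-101 (0.29) and miR-652 (0.36). For miR-107 they were a different set, miR-660 (0.33), miR-29b (0.39) and miR-106b (0.40), and miR-29b and miR-29c belong to the same family. The points share library and depth, so that these values are a description.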

How the data were processed

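The study sequenced small RNA of lymph nodes (6 DLBCL, 4 healthy). Reads were cleaned and mapped with Bowtie 0.12.9, tags from repeats, rRNA, tRNA, snRNA and snoRNA were removed, known miRNAs were taken from miRBase with a modified miRDeep2, and the submitters' processing notes name the build CanFam3.1. The authors deposited raw read counts per miRNA, and TPM values that equal CPM by total listed reads to within 4.55e-05. Groups were taken from the labels.

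The counts were tested with edgeR 4.0.16 in R 4.3.3 (TMM, the default filter by group, quasi-likelihood test, Benjamini-Hochberg adjustment over 247 miRNAs). The standard error was derived from the log2 fold change and the F statistic of the test. The 95% interval was computed from the log2 fold change, this standard error and the total degrees of freedom. Log2 CPM uses a prior count of 2 in the SDs and the test of spread, and no prior count in the permutation test of single candidates. Log2 ratios use the raw counts, with 0.5 reads added in the search for the nearest miRNAs. Permutation tests, run through all arrangements, were done in Python 3.11.15 with numpy 2.4.6. Plots were drawn with matplotlib 3.10.9. DESeq2 1.42.0 and limma 3.58.1 were alternatives, as were other scalings and filters, a replicate block, the Q30 group and leaving out each library. The edgeR test was tested on simulated data. Libraries of a group were not duplicates (smallest chi-squared per degree of freedom 2115).

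The candidates, lists and tests were chosen with earlier results of these data known. Named are the candidates, the study's and widely used references, the 3 nearest miRNAs by ratio, the 3 with the lowest SD, miR-148a and marker lists (lymphocytes, red blood cells, stroma and vessels, myeloid cells, skeletal muscle, pancreas). miRNAs sharing a seed were to be named but sequences were not used here. p-values set a difference between the groups against the variation between libraries, each from a different dog. In edgeR that variation is moderated over all miRNAs tested, so its intervals do not rest on the spread of the single miRNA alone.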

Additional observations from a re-analysis of the deposited data

How the results depend on the processing

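The call of none of the 3 candidates changed under the settings tried, except that of miR-361 when scaled to miR-29c alone (-1.75). For miR-101, whose log2 fold change was -0.03, the sign turned with DESeq2's size factors (0.0047), total reads (0.72), scaling to miR-101 and miR-361 (0.093, with miR-101 in its own scale) or to miR-361 alone (0.19), DESeq2 (0.0059), the Q30 covariate (0.084) and the lower Q30 group (0.075), and with libraries omitted in turn its range was -0.11 to 0.089. For miR-361 it turned with total reads (0.51) and ranged from -0.34 to -0.12, and for miR-107 it turned when scaled to miR-29c alone (-0.81) and ranged from 0.51 to 0.94. The scalings to a single miRNA, the TMM factors without the candidates, and leaving out libraries under the reference scalings were chosen after seeing the data.

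The 14 DEMs became 8 with DESeq2's size factors, 23 with total reads, 3 when scaled to miR-101 alone, 22 to miR-107 alone, 88 to miR-29c alone, 45 with DESeq2, 46 with limma-voom, 7 with the Q30 covariate and 46 in the lower Q30 group, and 1 (without Healthy4) to 23 (without DLBCL4) when libraries were omitted. The cause of these changes was not tested. Scaled to miR-101 and miR-361 the count was 2 to 17, and with miR-29c added 0 to 34. The differences in log2 ratio ranged without each library from 0.07 to 0.27 (miR-101/miR-361), -0.98 to -0.61 (miR-101/miR-107) and -1.23 to -0.78 (miR-361/miR-107), the last pairs passing the exact test without DLBCL3 only. Within the lower Q30 group, where 2 against 4 libraries cannot pass, they were 0.13, -1.30 and -1.43.

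The difference in mean absolute deviation of miR-361, -0.12 on the log2 scale, was 0.0061 with DESeq2's size factors, 0.041 with total reads and 0.23 with total reads without miR-148a. Without each library it ranged from -0.16 to 0.0088, from -0.048 to 0.10 for miR-101 and from -0.084 to 0.19 for miR-107.

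The replicate numbers 2 to 5 occur in both groups, but the correlations of same-numbered libraries were 0.26, -0.01, -0.30 and -0.33, and 1 of 4 healthy libraries correlated best with its own number, so that they share only a number. With the number as a block, 1 miRNA was a DEM, and the log2 fold changes of the candidates were -0.11, -0.23 and 0.61.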

Other observations

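let-7b, a member of the let-7 family that restrains growth-promoting genes, had the lowest SD of log2 CPM over the 10 libraries of all 247 miRNAs tested, at 0.19, below miR-361 and miR-101, which had the next ranks. Its DLBCL mean was 1216 ± 94.9 CPM (SD, n = 6), against a healthy mean of 1478 ± 144 CPM (SD, n = 4), and its log2 fold change was -0.28 (95% interval -0.89 to 0.33, adjusted p = 0.531 from edgeR). The DLBCL mean of miR-652 was 46.7 ± 10.48 CPM (SD, n = 6), against a healthy mean of 41.9 ± 10.02 CPM (SD, n = 4), and its log2 fold change was 0.16, with a 95% interval within a 2-fold change, as that of let-7b was. let-7b is related in sequence to other let-7 miRNAs, between which the counting could split reads.

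Among 8 candidates, the 3 described above and the other 5 of the study's search, the mean SD of the log2 ratio to the other 7 was lowest for miR-101, at 0.96, followed by miR-361, miR-22 at 1.05 and miR-107 at 1.08, and highest for miR-129 at 1.93. Within the healthy nodes the values ran from 0.39 for miR-101 to 0.71 for miR-29c, and within DLBCL the order again began with miR-101 and ended with miR-129, at 2.26.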
